A study of Mus musculus with 21 samples.

Results

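Libraries of 2-cell-like cells (2CLCs) were compared with libraries of mouse embryonic fibroblasts (MEFs) by RNA sequencing, over every gene name of the table that holds them. The libraries were chosen by their labels, 3 of 2CLCs and 3 of MEFs, which is 6 of the 21 libraries of the study and 6 of the 12 in the cell-state table. That table lists 21161 gene names. The labels give the cell line OG2 and the treatment WT for both groups, and name no drug or allele that separates them. OG2 is a mouse background that carries a green fluorescent protein reporter under regulatory sequence of Pou5f1. The way the 2CLCs were obtained, and the age of the embryos and the passage of the MEFs, are not given in the labels. Pluripotent cells of the same table, with 3 libraries of embryonic stem cells (ESCs) and 3 of EpiSCs, a primed type from the epiblast, are given beside the comparison for their levels. The series title ties the study to lactate, lactylation of splicing factors and totipotency, and gene groups for these themes are described with the others.

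2CLCs are rare cells in cultures of pluripotent cells that transcribe genes of the 2-cell embryo, the stage at which the mouse zygotic genome is switched on. The transcription factor Dux binds regulatory sequence of these genes, among them those read from the long terminal repeats of MERVL elements, and the Zscan4 proteins, which act on telomeres and on chromatin, are their best-known markers. MEFs are connective-tissue cells of the embryo that adhere, spread, contract and secrete the collagen-rich matrix around them.

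The promoters below show the 5′ flank of genes at either end of the comparison, so that the sequence can be read beside the values that follow. Each run is the 120 bases before the start site of the RefSeq model on the plus strand of GRCm38.p6. Capitals mark TATAAA, the core sequence of the TATA box, in the first 4 runs, and CCAAT, the core sequence of the CCAAT box, in the last. Counted from the start site, TATAAA begins at -54 in Zscan4c, -31 in Zscan4f, -88 in Usp17lc and -31 in S100a4. Whether any of these matches acts as a TATA box was not tested.
Zscan4c, chr7:11005625-11005744: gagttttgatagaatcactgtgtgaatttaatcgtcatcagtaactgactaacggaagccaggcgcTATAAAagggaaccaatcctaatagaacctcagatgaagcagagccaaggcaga
Zscan4f, chr7:11397795-11397914: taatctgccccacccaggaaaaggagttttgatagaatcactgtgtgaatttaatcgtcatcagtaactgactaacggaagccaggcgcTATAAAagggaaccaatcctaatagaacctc
Usp17lc, chr7:103416576-103416695: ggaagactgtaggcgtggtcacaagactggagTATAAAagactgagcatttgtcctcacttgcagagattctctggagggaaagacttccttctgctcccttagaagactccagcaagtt
S100a4, chr3:90603650-90603769: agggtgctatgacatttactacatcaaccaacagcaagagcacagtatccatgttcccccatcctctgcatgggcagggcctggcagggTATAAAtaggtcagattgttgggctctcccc
Col1a2, chr6:4505498-4505617: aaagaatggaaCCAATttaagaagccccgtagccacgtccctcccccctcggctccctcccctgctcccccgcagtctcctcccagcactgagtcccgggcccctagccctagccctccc
The promoters of Zscan4c and Zscan4f, which stood among the most abundant names in 2CLCs, differed at 2 of 277 aligned bases. S100a4 and Col1a2 stood among the names with the largest falls.

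Values are FPKM (fragments scaled to transcript length and to the mapped fragments of the library) as deposited, so levels can be compared between genes. Differences are log2 fold changes of 2CLCs over MEFs on the log2(FPKM + 1) scale, where the added 1 shrinks the change of low genes. A gene was called where limma's adjusted p (Benjamini-Hochberg) was under 0.05 and the log2 fold change was at least 1 in size, among 16358 genes that reached 1 FPKM in at least 3 of the 12 libraries. The labels do not tie replicates to separate cultures, and the p-values therefore reflect only how far these samples differ, which may be technical. The spread behind each p and SE is shared with the ESC and EpiSC libraries. EpiSC replicate 1 correlated with the other EpiSC libraries at 0.973, and those correlated with each other at 0.995. Without EpiSC replicate 1, 3255 genes were called higher and 5495 lower. In bulk libraries, fewer cells of a type and less RNA per cell cannot be told apart.

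2CLCs and MEFs differed across most of the transcriptome, and the defining markers of each stood on the side of their labels: Zscan4c and Duxf3 were read in every 2CLC library and in no MEF library, and Col1a1, Vim and Pdgfra were far higher in MEFs. Of 16358 genes tested, 3253 were called higher in 2CLCs (19.9%) and 5495 lower (33.6%), 8748 in either direction (53.5%). The adjusted p alone passed in 13800 genes (84.4%), and the libraries of the groups did not overlap in 14436 genes (88.3%). The correlation of log2 values between libraries was 0.989 to 0.991 among 2CLCs, 0.995 among MEFs, and 0.475 to 0.483 between a 2CLC and a MEF library. At least 5 FPKM in every 2CLC library stood against 0 in every MEF library for 570 names, and the reverse held for 93. When 1 of the 2CLC libraries was left out, 1911 to 1974 genes were called higher, because genes expressed in 2CLCs alone then miss the filter of 3 libraries. With the tested genes kept, 3228 to 3290 were.

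The scale between the libraries bears on the split of calls. Library sums were 518399 to 519915 FPKM in 2CLCs and 375926 to 376488 FPKM in MEFs, and the 20 most abundant names held 17.4 to 20.2% of the sum in 2CLCs and 8.20 to 8.93% in MEFs. The median log2 fold change of all genes was -0.34 as deposited, 0.09 with median-of-ratios scaling, -0.10 with quantile normalization and -0.69 with every library scaled to a common sum. The called genes were then split into 3253 higher and 5495 lower as deposited, 4896 (29.7%) and 4254 (25.8%) with median-of-ratios scaling, 3904 (23.9%) and 4583 (28%) with quantile normalization, and 2516 (15.4%) and 6906 (42.1%) with the common sum. The direction of small changes therefore rests on the scaling. So does that of mitochondrially encoded genes with larger ones (mt-Co1 at 1.23 as deposited and -0.51 with quantile normalization). Each list median and count below is to be read against these medians and shares of all genes (19.9% higher and 33.6% lower as deposited).

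**Figure D1:**
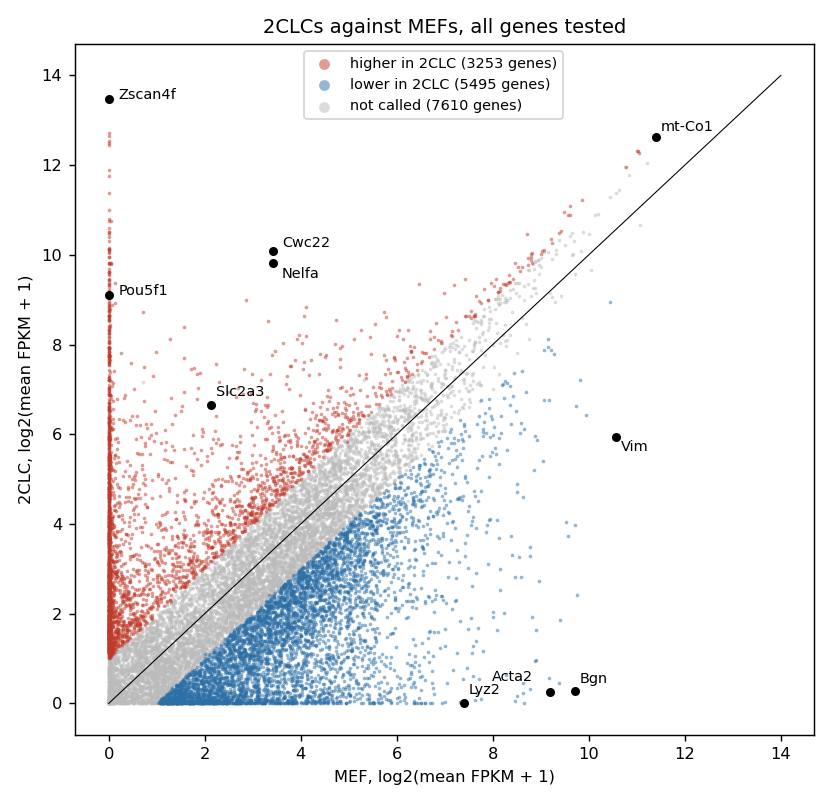
Mean level of each tested gene in 2CLCs (vertical axis) against MEFs (horizontal axis), both as log2(mean FPKM + 1), with genes called higher in 2CLCs in red (3253), called lower in blue (5495) and the others in grey. A column of red points stands at 0 on the MEF axis and reaches Zscan4f at the top, and a row of blue points at 0 on the 2CLC axis ends in names such as Bgn and Acta2.

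Genes of the 2-cell embryo were the most abundant names that set 2CLCs apart. Zscan4f, a zinc finger gene on chromosome 7 (11397915 to 11402318, GRCm38), reached 10687, 10875 and 12654 FPKM in 2CLCs, whereas the 3 MEF libraries stood at 0 (adjusted p = 1.24e-16). It was the name with the highest value in each 2CLC library, while the name with the highest value in each MEF library was mt-Co1. Zscan4c (chromosome 7, 11005745 to 11010547) had 5581, 5844 and 6297 FPKM in 2CLCs and was at 0 in every MEF library. The groups did not overlap for either gene. Against MEF libraries at 0 no fold change can be given.

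The 12 largest rises with a gene name that is not a predicted one were 9 Zscan4 copies, Usp17le, Tcstv3 and Eif4a3l1, and each was listed at 0 in every MEF library. Usp17le, a deubiquitinase gene, had 1421, 1428 and 1551 FPKM in the 2CLC libraries. Tcstv3, which extends telomeres when overexpressed in ESCs, had 1078, 1143 and 998 FPKM. Eif4a3l1, a relative of the exon junction helicase gene Eif4a3, had 940, 963 and 817 FPKM. Zfp352, a zinc finger gene read from a retrotransposon, had 221, 218 and 197 FPKM in 2CLCs and was also at 0 in every MEF library. Duxf3, a copy of the Dux gene, had 62.3, 59.4 and 71.7 FPKM in 2CLCs and was at 0 in every MEF library. In ESCs these names were low rather than absent, with means of 3.75 FPKM for Zscan4f, 0.456 FPKM for Tcstv3 and 0.0897 FPKM for Duxf3.

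Of 62 listed genes of the 2-cell embryo, 57 were in the table and 55 were tested, and 51 rose while 1 fell (19.9% and 33.6% of all genes tested). Their median log2 fold change was 8.25, but 37 were listed at 0 in every MEF library and passed the filter only through other cells, so the count describes the list. The size of that median rests on the added 1 (the pseudocount). It was 11.5 with a pseudocount of 0.1 and 5.94 with a pseudocount of 5. Without any 1 of the 2CLC libraries 13 rose, because most members then miss the filter, and with the tested genes kept the count stayed within 1.5 times 51. The single member that fell was Eif1a, a translation initiation factor gene, with 31.4, 31.2 and 33.2 FPKM in 2CLCs and 65.0, 62.3 and 68.8 FPKM in MEFs. Its log2 fold change was -1.01, and the call was lost without 2CLC replicate 1, 2CLC replicate 2 or MEF replicate 3 and with median-of-ratios scaling (-0.46) or quantile normalization (-0.95). The list as a whole held 11.4% ± 0.587 of the summed FPKM in 2CLCs and 0.0384% ± 0.00145 in MEFs (SD, n = 3).

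Several gene families were read in 2CLCs and hardly or not at all in MEFs. The 9 Zscan4 names held 9.39, 9.58 and 10.9% of the summed FPKM in the 2CLC libraries and 0 in the MEF libraries. Every tested Tdpoz name (9), Pramel or Pramef name (9), Obox name (38), Usp17l name (5) and Tcstv name (2) was called higher, beside 19.9% of all genes tested. Nearly all of these names were at 0 in MEFs and passed the filter through the 2CLCs, so their calls were close to fixed and the counts are a description. Obox names code for homeodomain proteins of the oocyte and early embryo, and 42 of the 44 in the table were listed at 0 in every MEF library. The third 2CLC library stood above the others for Obox names, at 0.307% of its sum, against 0.204% and 0.194%. Members of these families share most of their sequence, and how their FPKM divide among the copies is uncertain.

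Many of these families lie in arrays, which appeared as unbroken runs of neighbouring tested genes called higher. The longest run held 71 genes on chromosome 12 (87449075 to 88340774, GENCODE M21 on GRCm38), from Snw1 to Gm18620, 69 of them with predicted or pseudogene names, at a median log2 fold change of 3.44. It opens with Snw1, a spliceosome gene at 232, 246 and 269 FPKM in 2CLCs and 27.7, 29.6 and 27.2 FPKM in MEFs, and includes Oog1, an oocyte gene at 12.5, 11.7 and 7.27 FPKM in 2CLCs and 0 in every MEF library. A run of 51 on chromosome 4 (145404306 to 147642513) held zinc finger genes such as Zfp600, at 38.3 FPKM in 2CLCs and 0.0356 FPKM in MEFs. Further runs held Tdpoz genes on chromosome 3 (93628640 to 94332540, 29 genes), Obox names on chromosome 7 (14548714 to 15265656, 26 genes), the Zscan4 cluster on chromosome 7 (10794242 to 11626287, 25 genes) and Pramel and Pramef genes on chromosome 4 (143394428 to 143994369, 19 genes). Among genes called lower, the longest runs held 14 genes around Hoxb on chromosome 11 (96251105 to 96777559), 13 genes of Hoxa on chromosome 6 (52156902 to 52260880) and 10 genes around Cxcl1 on chromosome 5 (90603076 to 91626894). By chromosome, the share of tested genes called higher was highest on chromosome 12 (30.9%) and chromosome 13 (30.9%), and lowest on chromosome 18 (11.1%) and chromosome 15 (11.3%). For the 37 tested genes of the mitochondrial chromosome the share rested on the scaling, at 16.2% as deposited, 48.7% with median-of-ratios scaling and 10.8% with quantile normalization. The runs were found from the calls and are a description. Names at 0 in every MEF library passed the filter only through other cells and could not be called lower. How many such names each run or chromosome holds was not counted, so run lengths in the opposite directions and shares by chromosome are a description too.

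Most tested activators of the 2-cell programme were called higher, and among its repressors more rose than fell. Of 22 activators tested, 16 rose and 3 fell, with a median log2 fold change of 2.72, and 12 were listed at 0 in every MEF library. That median was 5.50 with a pseudocount of 0.1 and 1.35 with a pseudocount of 5. Through the filter, 6 or 7 rose when a 2CLC library was left out. Dppa2, a chromatin protein that acts upstream of Dux, had 245, 229 and 208 FPKM in 2CLCs and was at 0 in every MEF library. Nelfa, a subunit of the complex that pauses RNA polymerase II and an early marker of the 2-cell state, had 902, 937 and 883 FPKM in 2CLCs and 9.56, 9.29 and 10.1 FPKM in MEFs. Its groups stood far apart, with a log2 fold change of 6.42 ± 0.06 (SE, adjusted p = 3.85e-15). In ESCs and EpiSCs Nelfa averaged 28.8 and 27.8 FPKM. The members that fell were Gata2, Mbd3 and Smad7, at 0.728, 42.8 and 3.34 FPKM in 2CLCs and 5.13, 93.5 and 11.9 FPKM in MEFs. The call of Mbd3 was lost with median-of-ratios scaling (-0.55).

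Of 37 genes that hold the 2-cell programme down in ESCs, 15 rose, 5 fell and 17 were not called, and 2 fell with median-of-ratios scaling. Trim28, the co-repressor that silences endogenous retroviruses, had 678, 661 and 625 FPKM in 2CLCs and 87.7, 89.7 and 83.5 FPKM in MEFs, a log2 fold change of 2.90. ESCs stood near the 2CLCs, at 627 FPKM. Max and E2f6, DNA-binding subunits of a Polycomb complex that acts on germline genes, fell: Max had 9.93, 9.31 and 9.55 FPKM in 2CLCs and 38.4, 39.9 and 38 FPKM in MEFs, and E2f6 averaged 1.49 FPKM and 26.5 FPKM. Kdm1a, a histone demethylase, was at 49.6 FPKM in 2CLCs and 29.8 FPKM in MEFs, and its log2 fold change of 0.71 was under the minimum, though it was called with median-of-ratios scaling (1.27).

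Pluripotency genes were on in 2CLCs and near 0 in MEFs. Pou5f1, the gene for the transcription factor Oct4 (chromosome 17, 35506018 to 35510772), had 533, 553 and 571 FPKM in 2CLCs and was listed at 0 in every MEF library. Nanog, a homeodomain factor of the same network, had 116, 113 and 114 FPKM in 2CLCs and 0.0604, 0 and 0.0612 FPKM in MEFs. Both genes separated the groups without overlap. Of 37 tested genes of this list 33 rose, none fell and 4 were not called, at a median log2 fold change of 3.80, although 13 members were listed at 0 in every MEF library. That median was 6.13 with a pseudocount of 0.1 and 2.24 with a pseudocount of 5. Fbxo15, a target of Oct4, reached 868, 868 and 987 FPKM in 2CLCs, against 0, 0 and 0.106 FPKM in MEFs and a mean of 51.7 FPKM in ESCs. Sox2 was lower in level, at 16.3, 18.7 and 24.8 FPKM in 2CLCs and 0.671, 0.951 and 0.602 FPKM in MEFs. Klf4, a zinc finger factor that fibroblasts also express, was not called, with 9.44, 9.36 and 10.8 FPKM in 2CLCs and 12.7, 13.3 and 13.3 FPKM in MEFs. Its log2 fold change was -0.38 as deposited and 0.15 with median-of-ratios scaling.

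Germline genes rose in 20 of 26 tested, with 1 lower (19.9% and 33.6% of all genes tested) and a median log2 fold change of 1.65. Of the 35 in the table, 12 were listed at 0 in every MEF library. Such names could pass the filter only through other cells, so the count describes the list. With a filter of 5 FPKM 9 rose, and 7 rose with a pseudocount of 5. The median was 3.90 with a pseudocount of 0.1 and 0.59 with a pseudocount of 5. Dazl, an RNA-binding protein of germ cells, had 11.8, 12 and 11 FPKM in 2CLCs and was at 0 in every MEF library. Tex19.1, which protects the germline from retrotransposons, had 42.5, 46.2 and 44.1 FPKM in 2CLCs and 0, 0.0398 and 0 FPKM in MEFs. The member that fell was Tdrd7, a Tudor-domain gene, at 0.0875 FPKM in 2CLCs and 11.5 FPKM in MEFs. Among genes of the first extraembryonic lineages more fell than rose, as among all genes tested. Of 12 tested trophectoderm genes 1 rose and 6 fell, beside 19.9% and 33.6% of all genes, and 4 fell with median-of-ratios scaling or quantile normalization. Cdx2, the trophectoderm factor, had 0.0540, 0.200 and 0.0857 FPKM in 2CLCs and was at 0 in every MEF library, below the filter. Of 11 primitive endoderm genes 3 rose (27.3%) and 7 fell (63.6%), beside 19.9% and 33.6% of all genes. With a filter of 5 FPKM 1 rose, and none did with a pseudocount of 5. Gata6 was at 0.0755 FPKM in 2CLCs and 5.47 FPKM in MEFs, and Sox17 at 1.35 and 0.0228 FPKM.

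**Figure D2:**
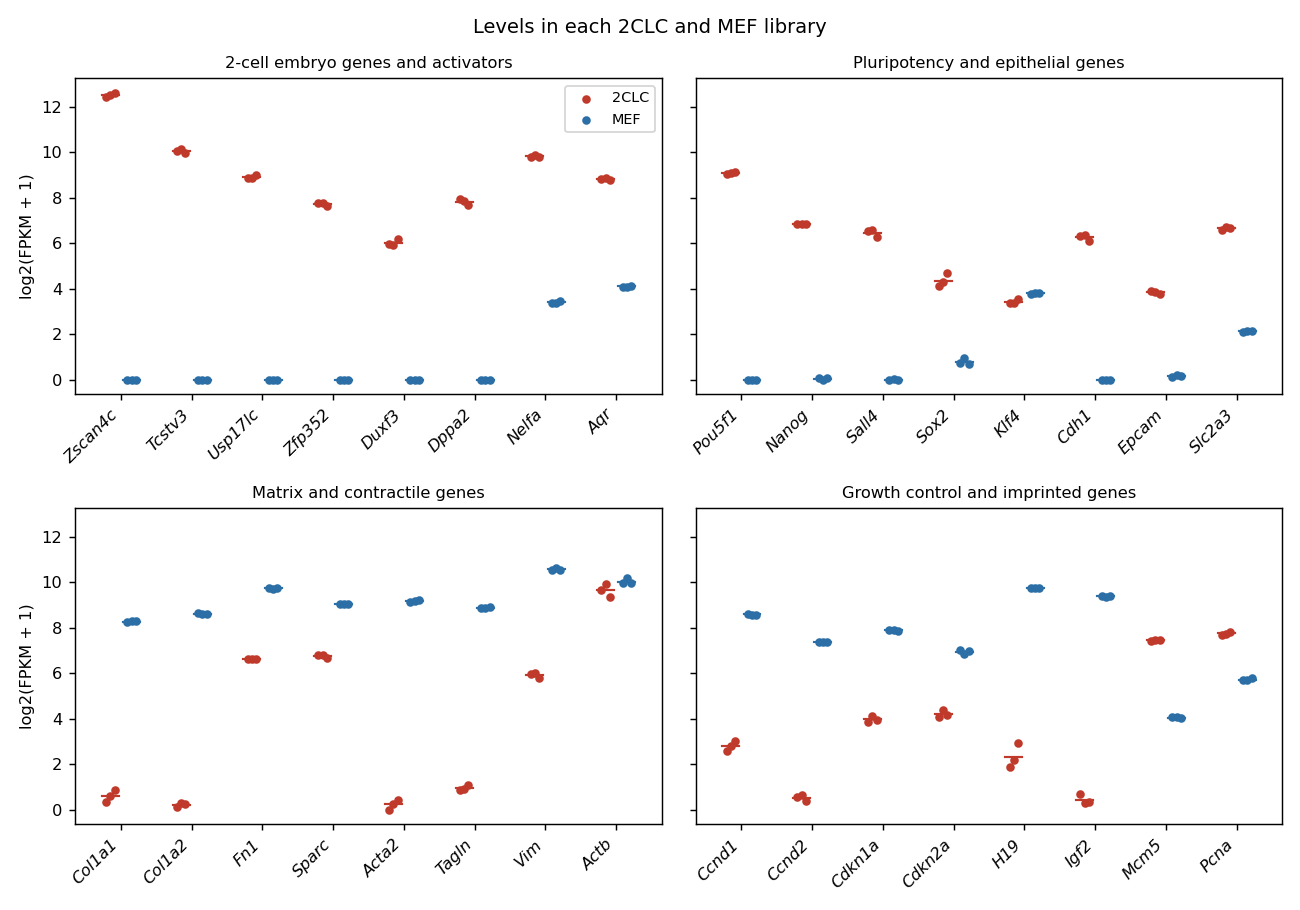
Level of single genes in each library as log2(FPKM + 1), with the 2CLC libraries (red) left of the MEF libraries (blue) and a short line at each group mean, in 4 panels for genes of the 2-cell embryo and their activators, pluripotency and epithelial genes, matrix and contractile genes, and growth control and imprinted genes. The 3 libraries of a group lie close together for most genes, and Klf4 and Actb are the genes whose groups stand nearest each other.

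Genes of the fibroblast matrix were mostly lower in 2CLCs, many of them near 0. Bgn, the matrix proteoglycan biglycan (chromosome X, 73483602 to 73495933), had 0.0895, 0.315 and 0.202 FPKM in 2CLCs and 855, 818 and 849 FPKM in MEFs. The log2 fold change was -9.46 ± 0.08 (SE, adjusted p = 2.29e-15), the largest fall among named genes. Col1a2, a chain of type I collagen, had 0.102, 0.234 and 0.192 FPKM in 2CLCs and 404, 387 and 392 FPKM in MEFs, a change of -8.39. Col1a1, the other chain, had 0.291, 0.536 and 0.855 FPKM in 2CLCs and 307, 312 and 311 FPKM in MEFs. The groups of these genes did not overlap.

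Of 21 tested fibroblast collagens, 19 fell and none rose, at a median of -4.78, and the remaining 2 were Col18a1 and Col27a1. When a MEF library was left out, the filter left 9 collagens, 32 matrix proteins and enzymes, 20 mesenchymal factors, 4 Hox genes and 21 growth factors and cytokines called lower, while the counts with the tested genes kept stayed within 1.5 times those given here. Col18a1, a basement membrane collagen, had 25.3, 28.1 and 26.7 FPKM in 2CLCs and 39.0, 35.4 and 35.1 FPKM in MEFs, and its log2 fold change was -0.44 as deposited and 0.11 with median-of-ratios scaling. The collagen genes of the table together held 0.0148 to 0.0156% of the summed FPKM in 2CLCs and 0.479 to 0.491% in MEFs. Of 56 matrix proteins and matrix enzymes, 51 fell and 2 rose, at a median of -4.16. The largest falls after Bgn were Fbln2, Timp2, Tnc and Thbs1, genes for fibulin 2, an inhibitor of matrix proteases, tenascin C and thrombospondin 1, with changes of -8.59, -8.46, -8.41 and -7.94. Among the 12 largest falls of all named genes were also Mgp, which keeps soft matrix from calcifying, and Gsn, which severs actin filaments, with changes of -8.34 and -8.17.

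Some matrix genes stood high in 2CLCs. Fn1, the gene for fibronectin, fell but still had 99.4, 99.2 and 97.3 FPKM in 2CLCs, against 864, 836 and 850 FPKM in MEFs, and ESCs averaged 110 FPKM. The members that rose were Nid2, a basement membrane linker, and P4ha2, a collagen prolyl hydroxylase. Nid2 had 49.0, 47.3 and 47.7 FPKM in 2CLCs and 9.63, 10.3 and 10.4 FPKM in MEFs. P4ha2 had 164, 190 and 125 FPKM in 2CLCs and 36.3, 35.9 and 36.2 FPKM in MEFs, and was at 2.08 FPKM in ESCs. Its spread in the shared fit was wide, with a log2 fold change of 2.09 ± 0.70 (SE, adjusted p = 0.0156).

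Contractile and cytoskeletal genes fell in 40 of 44 tested, none rose, and the median was -3.47. With median-of-ratios scaling or quantile normalization 1 rose, which was Csrp2, a LIM-domain gene of smooth muscle. Acta2, smooth muscle actin, had 0, 0.202 and 0.370 FPKM in 2CLCs and 568, 584 and 592 FPKM in MEFs. Tagln, its partner transgelin, had 0.813, 0.901 and 1.13 FPKM in 2CLCs and 463, 468 and 489 FPKM in MEFs. Vim, the mesenchymal intermediate filament gene, fell less far, with 62.8, 63.7 and 54.3 FPKM in 2CLCs and 1489, 1568 and 1500 FPKM in MEFs, a change of -4.64. Actb, cytoplasmic actin, was not called, with 802, 980 and 659 FPKM in 2CLCs and 1002, 1169 and 992 FPKM in MEFs. The 9 tested S100 genes, which code for small calcium-binding proteins, all fell. S100a4, also called fibroblast-specific protein, was listed at 0 in each 2CLC library and at 395, 402 and 411 FPKM in MEFs.

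Receptors and adhesion proteins of the fibroblast surface fell in 38 of 41 tested, none rose, and the median was -3.84. Cd44, the hyaluronan receptor, had 0.0217, 0.0888 and 0.0672 FPKM in 2CLCs and 196, 191 and 203 FPKM in MEFs. Pdgfra, a receptor for platelet-derived growth factor, averaged 0.253 ± 0.117 FPKM in 2CLCs and 29.4 ± 2.71 FPKM in MEFs (SD, n = 3). Thy1, the fibroblast surface protein CD90, kept a level of 4.38, 5.89 and 4.78 FPKM in 2CLCs, against 77.7, 65.5 and 78.6 FPKM in MEFs. The member nearest to a rise was Antxr1, an anthrax toxin receptor that binds collagen, which had 42.2, 40.7 and 31.7 FPKM in 2CLCs and 18.4, 18.3 and 18.7 FPKM in MEFs. Its change of 0.9992 was just under the minimum, and it was called without 2CLC replicate 3 or MEF replicate 3 and with median-of-ratios scaling (1.56) or quantile normalization. The anthrax receptor gene stood at 0.448 FPKM in ESCs.

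Mesenchymal transcription factors fell in 42 of 47 tested and rose in 2, at a median of -2.59. Prrx1, a homeodomain factor of limb mesenchyme, was listed at 0 in each 2CLC library and at 82.5, 82.0 and 85.5 FPKM in MEFs. Twist1, which drives mesenchymal identity, had 0.880, 1.38 and 0.927 FPKM in 2CLCs and 25.8, 29.2 and 24.7 FPKM in MEFs. The exceptions were Osr2 and Snai1, both higher in 2CLCs. Snai1, a repressor of Cdh1 in epithelial to mesenchymal transition, had 107, 109 and 96.0 FPKM in 2CLCs and 29.9, 26.0 and 30.9 FPKM in MEFs, a change of 1.81 ± 0.17 (SE, adjusted p = 1.22e-06). It averaged 1.77 FPKM in ESCs.

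Most epithelial genes were not called as deposited, and more rose than fell. Of 32 tested, 9 rose (28.1%), 3 fell (9.38%) and 20 were not called, beside 19.9% and 33.6% of all genes. With median-of-ratios scaling 14 rose, where 29.7% of all genes did. Cdh1, the gene for E-cadherin, had 80.3, 80.7 and 68.9 FPKM in 2CLCs and 0, 0.0117 and 0 FPKM in MEFs. Epcam, an epithelial adhesion molecule, had 14, 13.5 and 12.8 FPKM in 2CLCs and 0.102, 0.162 and 0.113 FPKM in MEFs. The keratins did not move as a group: Krt8 averaged 6.73 FPKM in 2CLCs and 1.49 FPKM in MEFs, while Krt18 averaged 1.65 and 10.6 FPKM, and Krt19 averaged 0.0235 and 21.4 FPKM. Cdh2, the gene for N-cadherin, had 0.664, 0.770 and 0.566 FPKM in 2CLCs and 56.7, 60.9 and 64.4 FPKM in MEFs.

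Secreted signals fell with the matrix. Of 49 tested growth factors and cytokines, 38 fell and 4 rose, at a median of -2.97, and 13 were listed at 0 in every 2CLC library. Igf2, a fetal growth factor, had 0.609, 0.227 and 0.270 FPKM in 2CLCs and 676, 654 and 674 FPKM in MEFs. The BMP antagonist gene Grem1 and the chemokine gene Ccl2 were at 0 in each 2CLC library, and averaged 102 and 95.2 FPKM in MEFs. Igfbp2, which binds insulin-like growth factors, was among those that rose, with 179, 162 and 149 FPKM in 2CLCs and 2.48, 3.45 and 2.21 FPKM in MEFs. Fgf7, known as a fibroblast product, was not called, with 30.3, 32.9 and 28.0 FPKM in 2CLCs and 34.7, 31.5 and 36.4 FPKM in MEFs, although ESCs had a mean of 0.0440 FPKM. Its change was -0.16 as deposited and 0.39 with median-of-ratios scaling.

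Immediate early genes and feedback genes of ERK signalling fell in 23 of 31 tested, rose in 1, and had a median of -2.26. Dusp6, an ERK phosphatase, had 0.768, 0.611 and 1.01 FPKM in 2CLCs and 75.6, 77.0 and 76.8 FPKM in MEFs. Myc averaged 1.61 FPKM in 2CLCs and 39.2 FPKM in MEFs, and was at 42.0 FPKM in ESCs. Mycn, its relative in embryonic cells, was the member that rose, with 4.52, 5.79 and 6.61 FPKM in 2CLCs and 0.589, 0.434 and 0.590 FPKM in MEFs. Hypoxia target genes fell in 15 of 22 and rose in 1, with Adm, a vasodilator peptide gene, at 0.152 FPKM in 2CLCs and 40.6 FPKM in MEFs. The member that rose was P4ha2, described above. Sterol synthesis genes fell in 11 of 25 and rose in 1, beside 33.6% and 19.9% of all genes. With median-of-ratios scaling 8 fell and 3 rose, and with the common sum 19 fell (42.1% of all genes) and 1 rose. The member that rose as deposited was Dhcr7, the enzyme of the last step to cholesterol, with 75.6, 74 and 61.5 FPKM in 2CLCs and 10.6, 9.59 and 7.90 FPKM in MEFs.

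Genes that record position and parental origin also differed. Of 31 tested Hox genes, which set position along the body axis, 25 fell and 1 rose, at a median of -2.21. Hoxc6 had 0.229, 0.142 and 0.0393 FPKM in 2CLCs and 24.4, 22.9 and 23.8 FPKM in MEFs. Hoxd13 stood apart from the rest of the list and was not called, with 8.10, 7.73 and 8.44 FPKM in 2CLCs and 10.8, 11.8 and 9.89 FPKM in MEFs, against 1.93 FPKM in ESCs. Hoxc13 was the member that rose, at 2.68 FPKM in 2CLCs and 0.447 FPKM in MEFs.

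Of 37 tested imprinted genes, 20 fell (54.1%) and 8 rose (21.6%), at a median of -1.25. Over all genes tested 33.6% fell and 19.9% rose, so the share that rose was near that of all genes. H19, a maternally expressed RNA next to Igf2, had 2.72, 3.53 and 6.70 FPKM in 2CLCs and 871, 852 and 860 FPKM in MEFs. Cdkn1c, Grb10 and Peg3 fell with it, with changes of -5.19, -5.49 and -3.81. Snrpn, a paternally expressed gene of the Prader-Willi region, rose, with 64.8, 65.7 and 66.7 FPKM in 2CLCs and 10.2, 10.5 and 10.6 FPKM in MEFs. Magel2, from the same region, averaged 9.32 FPKM in 2CLCs and 0.165 FPKM in MEFs, and was at 0.349 FPKM in ESCs.

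DNA methylation enzymes went in both directions, with 6 higher, 7 lower and 5 not called of 18 tested (19.9% of all genes were higher and 33.6% lower), and their summed level was 492 to 520 FPKM in 2CLCs and 272 to 286 FPKM in MEFs. Dnmt3l, the cofactor of the de novo enzymes, had 74.6, 80.9 and 79.8 FPKM in 2CLCs and 0.144, 0.449 and 0.110 FPKM in MEFs. Dnmt3b averaged 28.8 FPKM in 2CLCs and 0.428 FPKM in MEFs, while Dnmt3a was not called, at 2.94 and 5.42 FPKM. Uhrf1, which brings the maintenance enzyme to replicated DNA, had 158, 164 and 165 FPKM in 2CLCs and 19.13, 20.4 and 20.3 FPKM in MEFs. That enzyme, Dnmt1, averaged 36.5 FPKM in 2CLCs and 27.4 FPKM in MEFs, and its change was 0.40 as deposited and -0.05 with the common sum. Mbd2, a reader of methylated DNA, fell, at 2.52 FPKM in 2CLCs and 30.2 FPKM in MEFs.

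As deposited, most DNA replication genes rose, and no replication or mitosis gene of the lists fell. Of 48 tested DNA replication genes, 31 rose, none fell and 17 were not called, at a median of 1.33, beside 19.9% of all genes higher. With median-of-ratios scaling 40 rose, and with the common sum 21 rose, where 15.4% of all genes did. Mcm5, a subunit of the replicative helicase, had 170, 175 and 178 FPKM in 2CLCs and 15.7, 15.7 and 15.3 FPKM in MEFs, a change of 3.40. Lig1, the ligase that joins Okazaki fragments, had 155, 165 and 153 FPKM in 2CLCs and 11.8, 12 and 12.7 FPKM in MEFs. Rrm1, a subunit of ribonucleotide reductase, was not called, with 36.2 ± 0.958 FPKM in 2CLCs and 38.2 ± 0.489 FPKM in MEFs (SD, n = 3). Mitosis genes rose in 22 of 47 and fell in none, at a median of 0.96, while 13 rose and 2 fell with the common sum, with Ccnb1, a mitotic cyclin, at 130 FPKM in 2CLCs and 27.2 FPKM in MEFs. The kinase Cdk1 was at 31.7 FPKM in 2CLCs and 16.5 FPKM in MEFs, and its change of 0.92 was called only without MEF replicate 2 (1.08) or with median-of-ratios scaling (1.48) or quantile normalization (1.18). Of 57 replication-dependent histone genes listed, 4 were in the table, so this group is not described further than Hist1h2bp, at 45.9 FPKM in 2CLCs and 0.613 FPKM in MEFs.

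Of 26 tested G1 cyclins and inhibitors of their kinases, 14 fell and 1 rose, at a median of -1.05, and 9 fell and 5 rose with median-of-ratios scaling. Ccnd1, the D-type cyclin that couples growth signals to the cycle, had 5.05, 5.99 and 7.16 FPKM in 2CLCs and 392, 381 and 384 FPKM in MEFs. Ccnd2 had 0.497, 0.577 and 0.298 FPKM in 2CLCs and 165, 165 and 168 FPKM in MEFs. Cdkn1a, the gene for p21, had 13.4, 16.4 and 14.7 FPKM in 2CLCs and 238, 237 and 233 FPKM in MEFs. Cdkn2a, which codes for p16 and p19Arf and builds up in cultured fibroblasts, averaged 17.5 FPKM in 2CLCs and 123 FPKM in MEFs. Ccne2, a cyclin of S phase entry, was the member that rose, at 15.1 FPKM in 2CLCs and 6.15 FPKM in MEFs. Of 28 p53 target genes 14 fell and 1 rose (12 and 5 with median-of-ratios scaling), while Trp53 itself, at 116 FPKM in 2CLCs and 84.0 FPKM in MEFs, was not called, with a change of 0.46 as deposited, 1.02 with median-of-ratios scaling and -0.0007844 with the common sum.

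Glycolysis genes held more members lower than higher. Of 27 tested, 13 fell, 3 rose and 11 were not called, at a median of -0.99, beside 33.6% of all genes lower and 19.9% higher. With median-of-ratios scaling 7 fell, a share near the 25.8% of all genes. Hk1, a hexokinase, had 4.004, 3.995 and 4.31 FPKM in 2CLCs and 42.4, 43.6 and 44.1 FPKM in MEFs. Tpi1, triosephosphate isomerase, averaged 39.5 FPKM in 2CLCs and 280 FPKM in MEFs. Slc2a3, the high-affinity glucose carrier of early embryos, rose, with 94.8, 104 and 101 FPKM in 2CLCs and 3.34, 3.42 and 3.44 FPKM in MEFs, and was higher still in ESCs (245 FPKM). Pkm was not called, at 766 FPKM in 2CLCs and 835 FPKM in MEFs, a change of -0.12 as deposited, 0.44 with median-of-ratios scaling and -1.05, past the threshold, with quantile normalization. Gapdh, a gene with many processed copies, had 15.9, 20.9 and 75.4 FPKM in 2CLCs and 19, 19.6 and 20.02 FPKM in MEFs, with the third 2CLC library apart.

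Genes that make, move or burn lactate and pyruvate had no common direction. Of 29 tested, 5 rose (17.2%), 10 fell (34.5%) and 14 were not called, shares near the 19.9% and 33.6% of all genes tested. The median was -0.12 as deposited, 0.41 with median-of-ratios scaling and 0.10 with quantile normalization. Under the median-of-ratios scaling there were 9 higher and 7 lower members, where 29.7% and 25.8% of all genes were. Ldha, the muscle-type lactate dehydrogenase subunit, fell, with 245, 235 and 222 FPKM in 2CLCs and 592, 606 and 584 FPKM in MEFs, a change of -1.34 (-0.77 with median-of-ratios scaling, under the minimum). Ldhb fell by a like amount, with 14.4 FPKM in 2CLCs and 36.9 FPKM in MEFs and a change of -1.30 (-0.76 with median-of-ratios scaling, under the minimum). The exporter gene Slc16a3 (MCT4) had 1.13, 1.08 and 0.850 FPKM in 2CLCs and 23.3, 23.9 and 18.9 FPKM in MEFs. Slc16a1 (MCT1), which carries lactate in either direction, had 28.0, 28.3 and 25.7 FPKM in 2CLCs and 14.4, 14 and 12.5 FPKM in MEFs, a change of 0.95, under the minimum as deposited and called with median-of-ratios scaling (1.51) and quantile normalization (1.27). Slc16a6, a transporter of the same family, rose, with 44.7, 42.8 and 35.2 FPKM in 2CLCs and 1.29, 1.501 and 1.49 FPKM in MEFs.

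Acyltransferases and deacylases linked to lactylation were mostly not called, with 3 higher (11.1%), 4 lower (14.8%) and 20 not called of 27 tested. Both shares were under the 19.9% and 33.6% of all genes. With median-of-ratios scaling 7 were higher and 2 lower. Ep300, an acetyltransferase that can also add lactyl groups, was at 15.3 FPKM in 2CLCs and 13.4 FPKM in MEFs, a change of 0.18 as deposited and -0.25 with the common sum. Aars, the alanyl-tRNA synthetase gene, rose, at 131 FPKM in 2CLCs and 49.7 FPKM in MEFs. Sirt1 had 30.1, 33.0 and 31.1 FPKM in 2CLCs and 5.02, 4.88 and 4.73 FPKM in MEFs, while its relative Sirt2 had 6.92, 8.67 and 7.47 FPKM in 2CLCs and 45.5, 44.9 and 44.4 FPKM in MEFs. The deacetylase Hdac1 rose, at 161 FPKM in 2CLCs and 52.8 FPKM in MEFs. Hdac3 averaged 15.8 FPKM in 2CLCs and 32.9 FPKM in MEFs, and its change of -1.01 fell under the minimum without 2CLC replicate 2 (-0.96), without MEF replicate 1 (-0.9994) and with median-of-ratios scaling (-0.47), quantile normalization (-0.76) or a pseudocount of 5 (-0.87).

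The direction of mitochondrial genes rested on the scaling. Of 13 mitochondrially encoded genes, 4 rose and none fell, at a median of 0.86 as deposited, 1.42 with median-of-ratios scaling and -0.45 with quantile normalization. The number that rose was 12 with median-of-ratios scaling and 0 with quantile normalization or the common sum. mt-Co1, a subunit of cytochrome oxidase, had 6429, 6494 and 5974 FPKM in 2CLCs and 2668, 2695 and 2698 FPKM in MEFs, a change of 1.23 as deposited and -0.51 with quantile normalization. The mitochondrially encoded genes held 7.37% ± 0.149 of the summed FPKM in 2CLCs and 5.05% ± 0.0215 in MEFs (SD, n = 3). Of 79 nuclear genes of oxidative phosphorylation, 70 were not called, 8 rose (10.1%) and 1 fell (1.27%), beside 19.9% and 33.6% of all genes. With median-of-ratios scaling 28 rose and none fell, and with the common sum 3 rose and 6 fell. The largest rises were Cox7a1 and Cox6b2, tissue-specific subunits, with Cox6b2, the testis form, at 64.2, 68.8 and 48.9 FPKM in 2CLCs and 17.9, 17.9 and 17.1 FPKM in MEFs.

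Most core spliceosome genes were not called, and a pair of them stood far above MEFs. Of 68 tested, 16 rose (23.5%), 1 fell (1.47%) and 51 were not called, at a median of 0.56, beside 19.9% and 33.6% of all genes. With median-of-ratios scaling 43 rose and none fell, where 29.7% of all genes rose, and with the common sum 9 rose and 2 fell. Cwc22, which loads the exon junction complex onto spliced RNA, had 1107, 1138 and 995 FPKM in 2CLCs and 9.83, 9.39 and 9.87 FPKM in MEFs, a change of 6.66 ± 0.09 (SE, adjusted p = 5.06e-14). Aqr, a helicase of the activated spliceosome, had 449, 470 and 447 FPKM in 2CLCs and 16.1, 16.2 and 16.8 FPKM in MEFs, a change of 4.72. ESCs and EpiSCs had 25.7 and 21.9 FPKM of Cwc22, and 42.1 and 67.5 FPKM of Aqr. The next largest members were Xab2 and Cdc5l, with changes of 2.02 and 1.94.

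SR proteins, hnRNPs and other splicing regulators went in both directions, with 8 higher (13.1%), 10 lower (16.4%) and 43 not called of 61 tested. Both shares were under the 19.9% and 33.6% of all genes. The median was 0.28 as deposited and -0.16 with the common sum, and 24 rose and 6 fell with median-of-ratios scaling. Rbm25, a regulator of splice site choice, rose, at 220 FPKM in 2CLCs and 43.1 FPKM in MEFs. The largest falls were in Mbnl2 and Mbnl1, the muscleblind regulators that promote adult splicing patterns. Mbnl2 had 3.18, 3.94 and 2.92 FPKM in 2CLCs and 62.5, 60.2 and 62.5 FPKM in MEFs, and Mbnl1 averaged 3.01 and 37.5 FPKM. The polypyrimidine tract regulator Ptbp1 was not called, at 149 FPKM in 2CLCs and 169 FPKM in MEFs, a change of -0.18 as deposited and 0.39 with median-of-ratios scaling.

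Most lysosome genes were lower in 2CLCs, and antigen presentation genes were split between lower and not called. Of 35 tested lysosome genes, 27 fell and none rose, at a median of -2.31, with the protease gene Ctsb at 15.4, 16.4 and 16.1 FPKM in 2CLCs and 275, 266 and 269 FPKM in MEFs. Of 18 genes for MHC class I presentation, 9 fell, 8 were not called and 1 rose (8 fell and 2 rose with median-of-ratios scaling), the rise being lost without 2CLC replicate 1, 2CLC replicate 2 or MEF replicate 1. B2m, the light chain of class I molecules, had 6.83, 6.89 and 7.22 FPKM in 2CLCs and 289, 276 and 290 FPKM in MEFs, while the heavy chain gene H2-K1 was not called, at 19.2 and 11.3 FPKM (0.72, and called with median-of-ratios scaling at 1.26 and quantile normalization at 1.13). Interferon and RNA-sensing genes fell in 14 of 27 and rose in 3, with Sting1 at 0.164 FPKM in 2CLCs and 18.6 FPKM in MEFs. Ifitm1, a membrane protein also made by germ cells, rose, at 21.4 FPKM in 2CLCs and 1.67 FPKM in MEFs.

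Transcripts of other cell types stood beside these results. Of 15 tested markers of macrophages and leukocytes 13 fell and none rose, and their summed level was 16.2 to 18.5 FPKM in 2CLCs and 254 to 276 FPKM in MEFs. Lyz2, a lysozyme gene of macrophages, was listed at 0 in each 2CLC library and at 178, 159 and 169 FPKM in MEFs. C1qa, C1qb, C1qc, Tyrobp and Adgre1, further macrophage markers, were also at 0 in each 2CLC library and averaged 5.32 to 13.2 FPKM in MEFs. The part of these cells in the lysosome, antigen presentation, interferon and cytokine results was not tested. Xist, the RNA of the inactive X chromosome, had 0.612, 0.696 and 0.230 FPKM in 2CLCs and 33.1, 33.3 and 32.3 FPKM in MEFs, and the Y-linked gene Ddx3y was at 0 in each 2CLC library and at 4.60, 4.38 and 4.62 FPKM in MEFs, so the MEF libraries held both. Among 7 endothelial markers 4 rose and 1 fell, with Pecam1, which ESCs also express (15.4 FPKM), at 10.2 FPKM in 2CLCs and 0.124 FPKM in MEFs. Muscle, neural, keratinocyte, and cartilage and bone markers split, with 2, 3, 0 and 2 members higher and 3, 3, 1 and 4 lower. Their summed levels were 198 to 220, 98.6 to 110, 8.36 to 11.6 and 206 to 241 FPKM in 2CLCs, against 46.8 to 53.5, 101 to 105, 36.0 to 39.7 and 869 to 975 FPKM in MEFs.

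**Figure D3:**
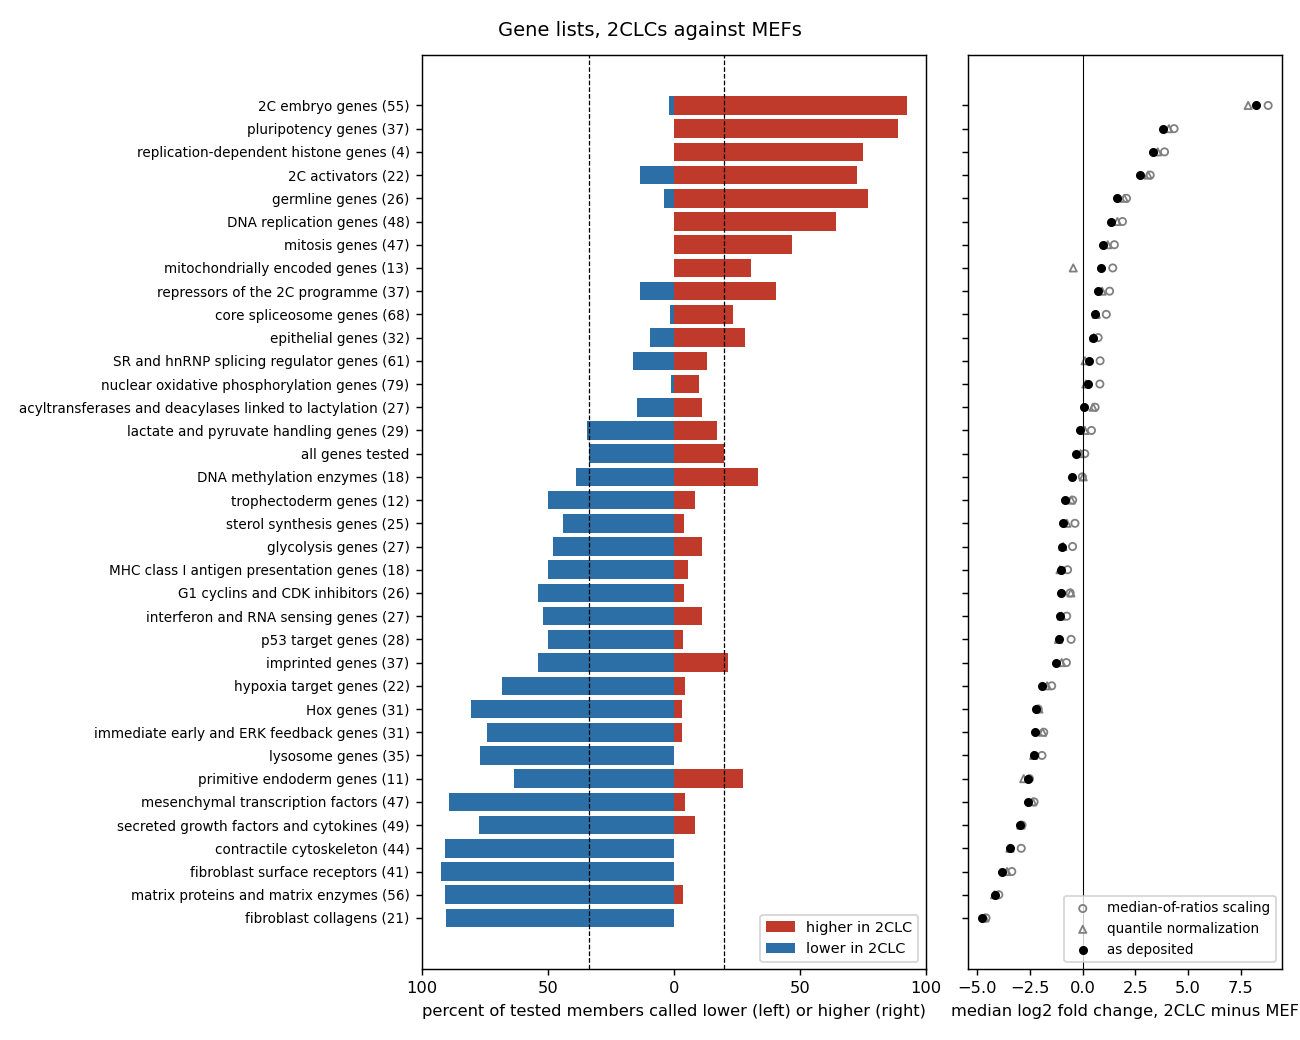
Share of the tested members of each gene list called higher and called lower in 2CLCs than in MEFs, with dashed lines at the shares over all genes tested (19.9% and 33.6%), beside the list's median log2 fold change as deposited, with median-of-ratios scaling and with quantile normalization. The lists of the 2-cell embryo and pluripotency stand at the high end and those of collagens, matrix and fibroblast receptors at the low end under each of these scalings, while the mitochondrially encoded genes change sign with quantile normalization.

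**Figure D4:**
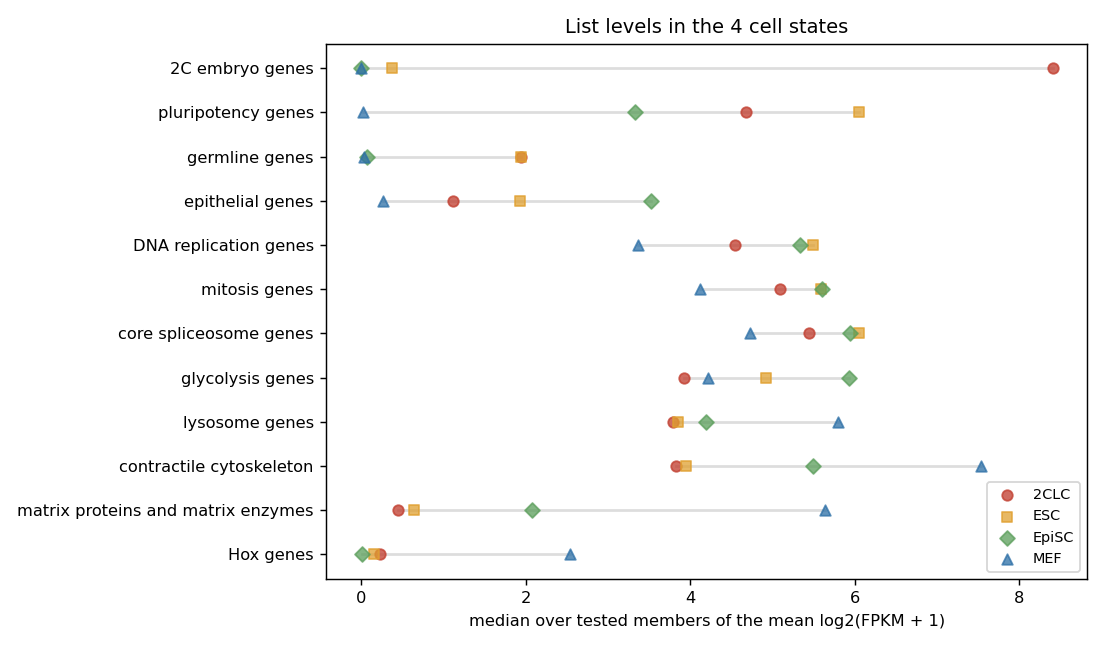
Median level over the tested members of 12 lists, each member as its mean log2(FPKM + 1), in 2CLCs, ESCs, EpiSCs and MEFs. The list of the 2-cell embryo is at 8.41 in 2CLCs and at 0 in MEFs, and the matrix proteins and enzymes are at 0.45 in 2CLCs, 0.65 in ESCs, 2.07 in EpiSCs and 5.63 in MEFs.

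Classes of gene differed in their share of calls. Names not read in any MEF library, as in the arrays above, passed the filter only through other cells and could not be called lower. How many such names each class holds was not counted, so the shares are a description. Of 13078 protein-coding genes 14.4% were called higher and 39.2% lower. Of 213 unprocessed pseudogenes, which arise by duplication, 78.4% were higher and 5.16% lower, and of 1177 processed pseudogenes, which arise by reverse transcription, 39.3% were higher and 4.16% lower. Long intergenic RNAs (399 tested) were higher in 55.1% and lower in 15.3%. Antisense genes (278 tested) were higher in 33.1% and lower in 20.5%, and as the sources used here do not give the strand setting of the counting, reads of an antisense gene and its partner cannot be told apart. Under median-of-ratios scaling 23.02% of protein-coding genes, 83.6% of unprocessed and 59.1% of processed pseudogenes were called higher.

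Protein-coding genes held 78.4 to 79.6% of the summed FPKM in 2CLCs and 89.5 to 90.2% in MEFs. Processed pseudogenes held 8.11 to 8.501% in 2CLCs and 4.43 to 4.55% in MEFs, and long intergenic RNAs 0.903 to 0.988% and 0.5004 to 0.520%. Unprocessed pseudogenes, a class in which the annotation counts Zscan4a, held 5.07 to 7.19% in 2CLCs and 1.57 to 2.59% in MEFs. Pseudogenes share sequence with their parent genes, so their FPKM are uncertain.

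**Figure D5:**
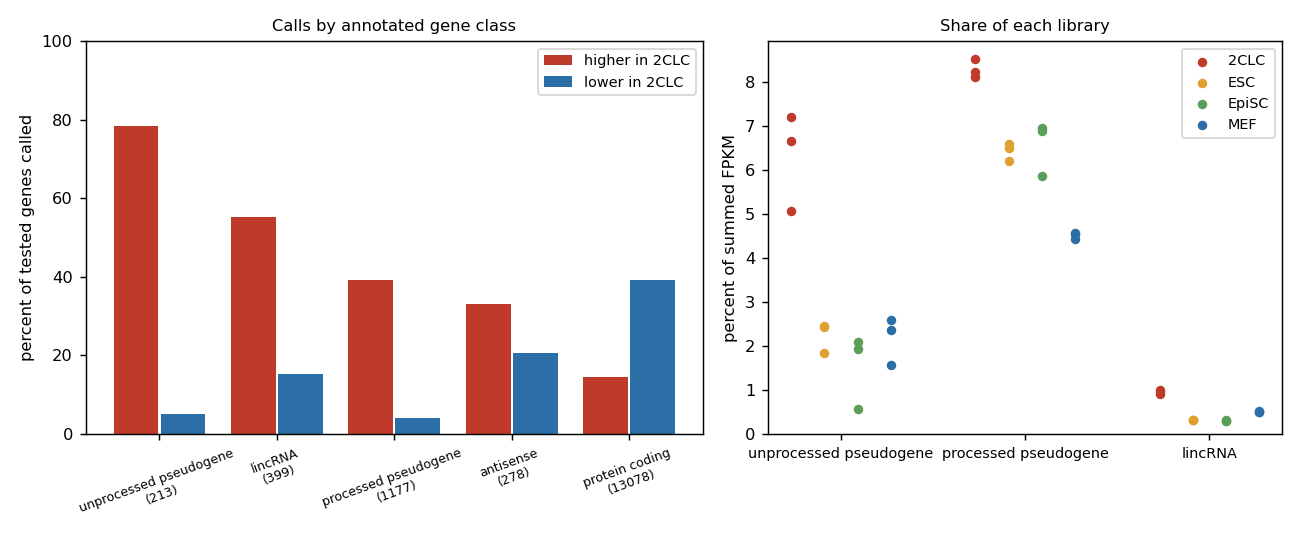
Share of tested genes of each annotation class called higher or lower in 2CLCs than in MEFs, beside the share of each library's summed FPKM held by pseudogenes and long intergenic RNAs in the 4 groups of cells. Unprocessed pseudogenes have the highest share called higher among the classes drawn (78.4%), and the 2CLC libraries hold the most FPKM in each class drawn. Names not read in any MEF library passed the filter only through other cells and could not be called lower.

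Ratios of related genes within a library do not depend on the scaling between libraries. For 14 pairs with both genes above 0 in each library, the log2 ratio did not overlap between groups in 13. Single genes did not overlap in 88.3% of those tested, so the count is a description. Each of the 13 pairs had an exact two-sided permutation p of 0.1, the smallest that 3 against 3 allows. This p was 0.108 after Benjamini-Hochberg adjustment over the 14 pairs, so no pair can pass a threshold of 0.05. Slc16a1 over Slc16a3 was 4.75 ± 0.15 in 2CLCs and -0.69 ± 0.09 in MEFs (SD, n = 3). Slc16a1 was thus the more abundant of the pair in 2CLCs and the less abundant in MEFs. Dnmt3a over Dnmt3b was -3.30 ± 0.14 in 2CLCs and 3.65 ± 0.52 in MEFs. Hk1 over Hk2, hexokinases of broad and of growth-linked expression, was -0.61 ± 0.19 in 2CLCs and 1.69 ± 0.07 in MEFs. Each of these 3 ratios thus had opposite signs in the groups. Ccnd3 over Ccnd1 was 2.72 ± 0.22 in 2CLCs and -1.89 ± 0.07 in MEFs, and Actg1 over Actb was -0.71 ± 0.22 and 0.41 ± 0.14. Ldhb over Ldha was the pair that overlapped, at -4.02 ± 0.08 in 2CLCs and -4.01 ± 0.06 in MEFs (exact permutation p = 0.8).

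The promoters shown at the start can be set against those of all genes. RefSeq promoters, from 250 bases before to 50 after the start site, were matched by symbol for 1656 genes called higher and 4176 called lower, and searched on both strands for TATAAA, for CCAAT and for GGGCGG, the core of the GC box. TATAAA was found in 12.4% of promoters of genes called higher and 6.97% of those called lower, beside 7.65% of 10942 tested and 14.2% of 27025 in the table. CCAAT was found in 46.6% and 34.8%, beside 39.7% and 37.9%. GGGCGG was found in 49.6% and 67.8%, beside 63.7% and 35.9%. Of 31 promoters of the list of the 2-cell embryo, 8 held TATAAA, 20 CCAAT and 4 GGGCGG, and of 20 collagen promoters 1, 9 and 14 did. Family members share promoter sequence, as Zscan4c and Zscan4f show, so these promoters are not independent, and a match is a run of letters and not a bound site.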

How the data were processed

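Trizol was used to extract total RNA, and an Illumina TruSeq kit and a MiSeq for the libraries and their sequencing, per the labels' protocols. Alignment to mm10 used HISAT2 2.0.4 and quantification StringTie 2.1.4, per the submitters' processing notes, and the sources used here do not name the annotation. The authors deposited FPKM, which were used unchanged. Read counts were not used, and the depth is unknown: among 3900 single-exon genes at most 1.28% per library shared the commonest FPKM times length, so no read step could be found and no counting intervals are given.

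The table holds 21199 entries for 21161 names, and entries that share a name were summed. The 35 names that stand more than once differ only in 2CLC replicate 1 and are not named. Values were taken as log2(FPKM + 1), filtered at 1 FPKM in at least 3 of 12 libraries, and fitted in limma 3.58.1 (R 4.3.3) with the 4 groups of the table in a single model, which share the spread, and moderated variances with a mean trend. A list's median is over its tested members. Python 3.11.15 with pandas 2.3.3, numpy 2.4.6 and matplotlib 3.10.9 handled tables and figures. Places come from GENCODE M21 on GRCm38, which knows 20640 of the names.

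The comparison, the 35 gene lists and the 7 marker lists were chosen with earlier results of these data known, so no p is given over a list. Genes were named by a rule: among calls whose libraries do not overlap, whose higher mean reaches 5 FPKM and whose name is not a predicted one, the 12 with the largest rise and the 12 with the largest fall, and for each list its anchors and up to 4 further members with the largest change. Single members named only for their call or for standing apart from their list, such as Eif1a, Antxr1, Gapdh and Hoxd13, were chosen after their values were seen.

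Alternatives were median-of-ratios scaling or quantile normalization, a filter of 5 FPKM or none, a pseudocount of 0.1 or 5, a fit with no mean trend, the 2CLC and MEF libraries alone, the adjusted p alone, ratios of FPKM + 1, a replicate block, no repeated names, and leaving out each library in turn. Added after seeing the data were a common library sum, leaving out a library with the tested genes kept, and a fit without EpiSC replicate 1. The fit was tested on simulated data.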

Additional observations from a re-analysis of the deposited data

How the results depend on the processing

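The counts of genes depended on the scaling, the pseudocount, the minimum change and, through the filter, on single libraries. Genes higher numbered 4896 with median-of-ratios scaling. With a pseudocount of 5, 1880 were higher and 3118 lower. By the adjusted p alone, 5460 were higher and 8340 lower. Leaving out a library gave 1911 to 3251 genes higher and 4603 to 5512 lower, because the filter of 3 libraries then drops genes expressed in that group alone. With the tested genes kept the ranges were 3227 to 3290 and 5471 to 5512. Of the 35 lists, 21 had a negative median (20 to 21 with 1 library left out), where the median of all genes was -0.34. With median-of-ratios scaling or quantile normalization 20 lists had a negative median, and with the common sum 24 did. The number of gene pairs that did not overlap was 13 (13 whichever library was left out).

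Some results reversed with the scaling, mitochondrially encoded genes called as deposited among them. With median-of-ratios scaling the lactate and pyruvate median was 0.41, and Pkm was at 0.44, U2af2 at 0.51, Srsf2 at 0.39, Ptbp1 at 0.39 and Fgf7 at 0.39. With quantile normalization the median of DNA methylation enzymes was 0.0229, of lactate and pyruvate genes 0.10 and of mitochondrially encoded genes -0.45, and mt-Co1 was at -0.51, mt-Atp6 at -0.19, mt-Cytb at -0.45, mt-Atp8 at -0.23, mt-Co2 at -0.34, mt-Co3 at -0.45 and Ndufa4 at -0.17. With the common sum the medians of acyltransferases and deacylases, nuclear oxidative phosphorylation genes and splicing regulators were -0.34, -0.20 and -0.16, and Dnmt1 was at -0.0487, Trp53 at -0.0007844, Ep300 at -0.25, Ndufa4 at -0.29 and Sf3b1 at -0.35. Without MEF replicate 3 the lactate and pyruvate median was 0.00867, and the difference of Ldhb over Ldha was 0.0396 with ratios of FPKM + 1. The cause was not tested.

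With the replicate number as a block, 3255 genes were higher and 5495 lower, and no other call changed side. Same-numbered libraries did not deviate together (correlations of 0.10, 0.10 and -0.07), so the numbers are not taken as pairs. Depth limits what can be said of genes listed at 0.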
